A study of Mus musculus with 9 samples.

Results

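The interferon-stimulated genes and interferon regulatory factors (IRFs) of the mouse liver were followed here as 83 genes of the 55401 in the count table. They were the genes whose symbols name an IFIT, IFITM, OAS, GBP, IRG, IRF, ISG or IFI gene, together with a few named regulators and effectors, Mx1, Mx2, Stat2, Rsad2, Usp18 and Zbp1 among them. The choice rests on names alone, so it also takes in 3 IRF2-binding proteins (Irf2bp1, Irf2bp2 and Irf2bpl), which are not IRFs, and the pseudogenes Gbp2-ps and Ifi203-ps. RNA was sequenced from whole livers of female mice that were 6 weeks old when obtained, in 3 groups of 3 livers. Healthy livers came from wild-type mice that received neither oncogenes nor virus. Hepatocellular carcinoma (HCC) was induced by hydrodynamic tail vein injection, a rapid injection of a large volume that carries plasmids into hepatocytes, of a sleeping beauty transposase plasmid (pCMV-SB11) with pT3-EF1α-HA-myr-AKT and pT/Caggs-Nras-v12 (RAS/AKT). The injection protocol of the sample descriptions also lists pT3-EF1α-N90-β-catenin, whereas the study's design names these tumors as RAS/AKT-induced. At 1 week after the oncogenes the HCC mice received a single dose of an empty adeno-associated virus of serotype 8 (AAV8, untreated HCC) or AAV8 that overexpressed miR-22 (miR-22-treated HCC), and livers were harvested at 5 weeks. The EF1α, Caggs and CMV promoters are not restricted to a cell type. The strain is given as C57BL/6 in one field of the descriptions and as FVB/N in another and in the study's methods. Tumor, plasmid injection and AAV8 all separate untreated HCC from healthy livers, so their effects on the interferon-stimulated genes cannot be told apart in that comparison.

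Interferons are cytokines that cells release on sensing foreign or misplaced nucleic acid, and that T cells and NK cells release on activation. Type I interferons signal through IFNAR1 and IFNAR2 to the kinases JAK1 and TYK2, which activate a complex of STAT2, IRF9 and a partner that binds the interferon-stimulated response element (ISRE). Type II interferon, IFN-γ, signals through IFNGR1 and IFNGR2 to a factor that binds the gamma-activated site (GAS). Classical targets of type I interferon are the IFIT, OAS, MX and ISG15 genes, whose products act against viral RNA and proteins, whereas the guanylate-binding proteins (GBPs) and immunity-related GTPases (IRGs) respond strongly to IFN-γ and attack the vacuoles of intracellular parasites and bacteria. Hepatocytes are themselves responsive to interferons.

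A few promoter windows of 30 bases are printed to show the ISRE core, the sequence through which type I interferon acts. Promoters of 300 bases, from 250 before to 50 after the start of the gene, were taken from RefSeq (GRCm38.p6) and were held for 60 of the 83 members. The ISRE core was searched as GAAA, any 2 bases and GAAA, or as TTTC, any 2 bases and TTTC, which is the same core on the other strand, and the GAS core as TTCNNNGAA, which reads the same on both strands. The ISRE core was found in 31 of 60 members (51.7%), against 3.99% of the 27025 genes in the promoter table. The GAS core was found in 15 members (25%), against 9.55%. Matches of both cores overlapped in 1 member and in 23 genes in all. The windows below read 5′ to 3′ on the strand of the gene, with 1 match in capitals. In the windows of Isg15, Oas1a and Oas1g, further matches of the core overlap the one in capitals and stand partly in lower case.
Ifit1, chr19:34640775-34640804, plus strand: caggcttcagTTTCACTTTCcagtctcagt
Isg15, chr4:156200871-156200900, minus strand: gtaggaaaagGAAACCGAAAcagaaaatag
Oas1a, chr5:120907520-120907549, minus strand: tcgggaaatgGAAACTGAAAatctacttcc
Oas1g, chr5:120887606-120887635, minus strand: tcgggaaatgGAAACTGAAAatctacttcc
Stat2, chr10:128270266-128270295, plus strand: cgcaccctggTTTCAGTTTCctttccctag
Igtp, chr11:58199512-58199541, plus strand: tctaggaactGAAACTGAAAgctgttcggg
Gbp7, chr3:142530273-142530302, plus strand: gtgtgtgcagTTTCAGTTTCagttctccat
Irf2, chr8:46739495-46739524, plus strand: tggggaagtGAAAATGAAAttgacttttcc
The first 4 come from genes that were higher in untreated HCC than in healthy livers, Stat2 and Igtp from genes with no call in any comparison, and Gbp7 and Irf2 from genes that were higher with miR-22. The windows of Oas1a and Oas1g were the same, as were those of Ifit3 and Ifit3b, and reads of such near-identical copies may be divided between them with uncertainty. The core was not confined to genes that changed. It was found in 6 of 15 members that were higher in untreated HCC and had a promoter in the table, in 2 of 3 that were lower, and in 18 of 31 that were tested and not called. A match describes the sequence and is not a measured binding site.

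The livers held 16664659 to 23908392 counts each. Hepatocyte markers were present in all 9 livers, with all 8 genes of the list tested. Normalized counts of the HCC marker Afp ranged from 212 to 337 over the healthy livers, from 19291 to 38332 over untreated HCC and from 10425 to 18181 over miR-22-treated HCC, and Akt1, Nras and Gpc3 were also called higher in untreated HCC than in healthy livers. Pairs of livers in a group differed by more than counting error, so none was a second copy of another. The labels give no date or batch of preparation. The summed normalized count of 5 leukocyte markers, all tested, ranged from 936 to 1116 in the healthy group, from 1814 to 1869 in the untreated and from 1625 to 1888 in the miR-22-treated HCC livers. That of 8 monocyte and macrophage markers, all tested, was 2803 to 3105, 7307 to 10203 and 6622 to 7567, and that of 6 neutrophil markers, of which 4 were tested, was 34.2 to 87.8, 339.9 to 445 and 325 to 490, with Ly6g at 0 in the healthy and untreated HCC livers. The 8 hepatocyte markers summed to 2514764 to 2628397, 1004746 to 1273042 and 1513562 to 1852928. Other sums that were higher in untreated HCC than in healthy livers without overlap were those of cholangiocyte (572 to 816 against 64801 to 121460), stellate cell and fibroblast (4885 to 5531 against 14087 to 16244), proliferating cell (178 to 257 against 2557 to 3203), plasmacytoid dendritic cell (2150 to 2721 against 3308 to 3927), conventional dendritic cell (266 to 311 against 329 to 453) and red blood cell markers (2094 to 3078 against 4235 to 5923). A sum is led by its most abundant genes, and some of these lists were divided: 4 of 7 stellate cell and fibroblast markers were called higher and 2 lower, 3 of 6 conventional dendritic cell markers higher and 1 lower, and of 6 plasmacytoid dendritic cell markers, of which 4 were tested, 1 was called higher and 1 lower. Bst2 of the plasmacytoid dendritic cell list also stands in the list of other interferon-stimulated genes, so that sum is not a measure of cells alone. The T cell, B and plasma cell and Kupffer cell sums overlapped between healthy and untreated HCC livers. The sums that differed moved with the groups, and their part in the changes of the interferon-stimulated genes was not tested. In whole liver, fewer cells of a type and less RNA per cell cannot be told apart.

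**Figure D1:**
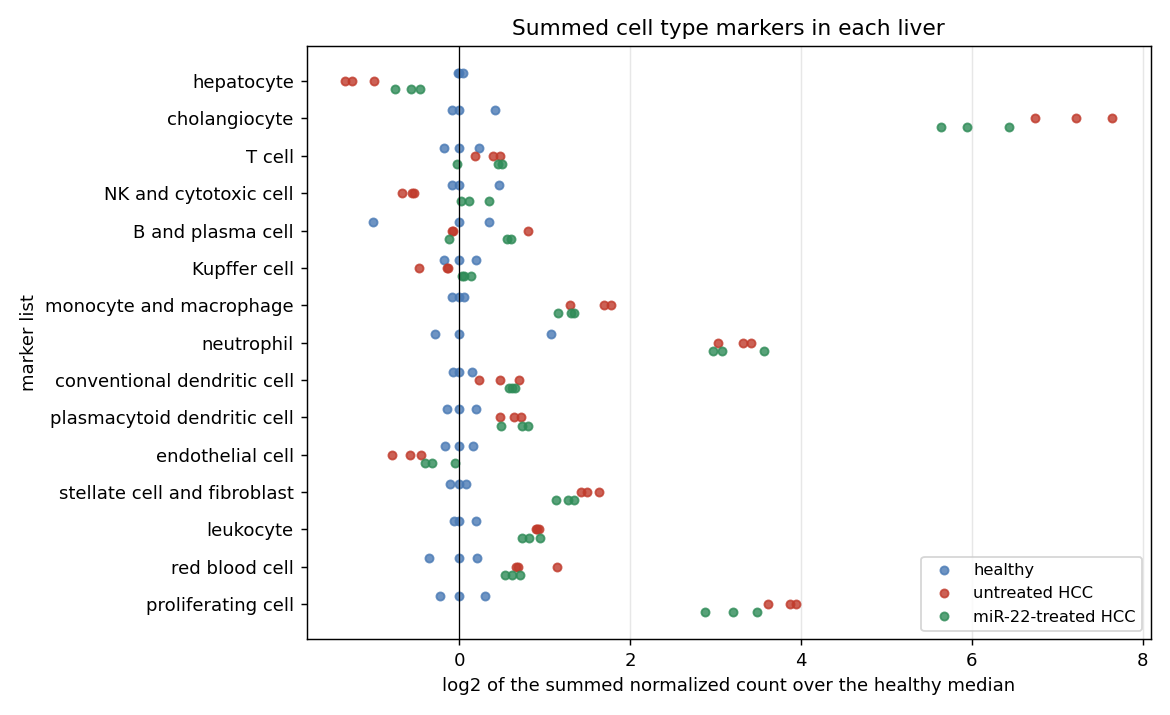
Summed markers of 15 lists in each liver, as the log2 ratio of the summed normalized count to the healthy median (horizontal axis). Each point is a liver, colored by group. The monocyte and macrophage sum lies at 2803 to 3105 in healthy livers and at 6622 or above in all HCC livers, whereas the hepatocyte sum falls in untreated HCC and lies between in miR-22-treated HCC.

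Of the 83 members, 69 passed edgeR's filter on low counts and were tested. The other 14 were too low to test. Gbp2-ps, Ifi44l, Oas1d, Oas1e and Oas1f had no count in any of the 9 livers. Ifitm5 had 63 counts over all livers, Ifitm6 41, Ifi214 37, Ifit1bl1 37, Ifit1bl2 35, Oas1h 19, Ifi213 12, Ifi206 5 and Ifitm7 1. Values below are counts normalized by the trimmed mean of M values (TMM). A member was called when its adjusted p from edgeR's quasi-likelihood test, corrected over all 15717 tested genes, was under 0.05 and its fold change was over 1.5. P-values measure the spread between these livers.

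The first comparison set untreated HCC against healthy livers. Of the 69 tested members, 23 rose and 7 fell. The 30 called members were 43.5% of those tested, close to the 40.8% called among all tested genes, in a comparison where much of the transcriptome differed. The share of rises among all tested genes was 22.7% and that of falls 18.1%. The median log2 fold change was 0.40 over the members and 0.01 over all tested genes. Counts did not overlap between the groups for 43 members (62.3%), against 65.3% of all tested genes. Most rises were in OAS, IFI27, IFIT and ISG15-pathway genes, and the falls were in GBPs, an IRG, Mx2 and IRFs.

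The transcription factors did not move as 1 group. Stat2 had 1914, 1429 and 1637 normalized counts in healthy livers and 1537, 1606 and 1908 in untreated HCC, a log2 fold change of 0.02 (95% interval -0.23 to 0.27, adjusted p = 0.892). Stat2, the transactivating subunit of the ISRE-binding complex, overlapped between the groups and was not called in any comparison. Irf9, its DNA-binding partner, had a log2 fold change of 0.15 and was not called.

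Irf7, which amplifies the induction of type I interferon genes and is itself interferon-induced, was the member of its family with the largest rise. It had 209, 96.6 and 138 normalized counts in healthy livers and 371, 259 and 328 in untreated HCC, so that every HCC liver was above every healthy liver. The log2 fold change was 1.11 (SE 0.22, adjusted p = 0.00087). Irf8, a regulator of macrophage and dendritic cell development, had 249, 176 and 159 in healthy livers and 340.0, 420 and 378 in untreated HCC, a log2 fold change of 0.97 (SE 0.17, adjusted p = 0.00036), again without overlap. Irf8 is a gene of myeloid cells, though not of these alone. The monocyte and macrophage marker sum was higher in untreated HCC (2803 to 3105 against 7307 to 10203), whereas that of 6 Kupffer cell markers, all tested, overlapped between the groups (5433 to 7049 against 4446 to 5596), and the part of these cells in the rise was not tested.

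The other IRFs were lower or did not pass. Irf5, which acts downstream of Toll-like receptors in myeloid cells, had 392, 347 and 328 normalized counts in healthy livers and 175, 205 and 178 in untreated HCC, with a log2 fold change of -0.93 (SE 0.24, adjusted p = 0.00563). Irf5 thus fell without overlap. Irf3, the constitutive factor that nucleic acid sensors activate, had 1467, 1202 and 1227 in healthy livers and 876, 877 and 933 in untreated HCC. Its log2 fold change of -0.54 (adjusted p = 0.00034) missed the fold threshold. Without healthy replicate 2 it was -0.60 and without healthy replicate 3 it was -0.59, both of which pass. Irf1 (-0.40, adjusted p = 0.0372) and Irf2 (-0.51, adjusted p = 0.00167) also stayed under the fold threshold, and Irf4 was not called. The exons of Irf1, Irf2, Irf3, Irf5 and Irf7 overlap those of genes on the other strand, and the libraries did not keep the strand.

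**Figure D2:**
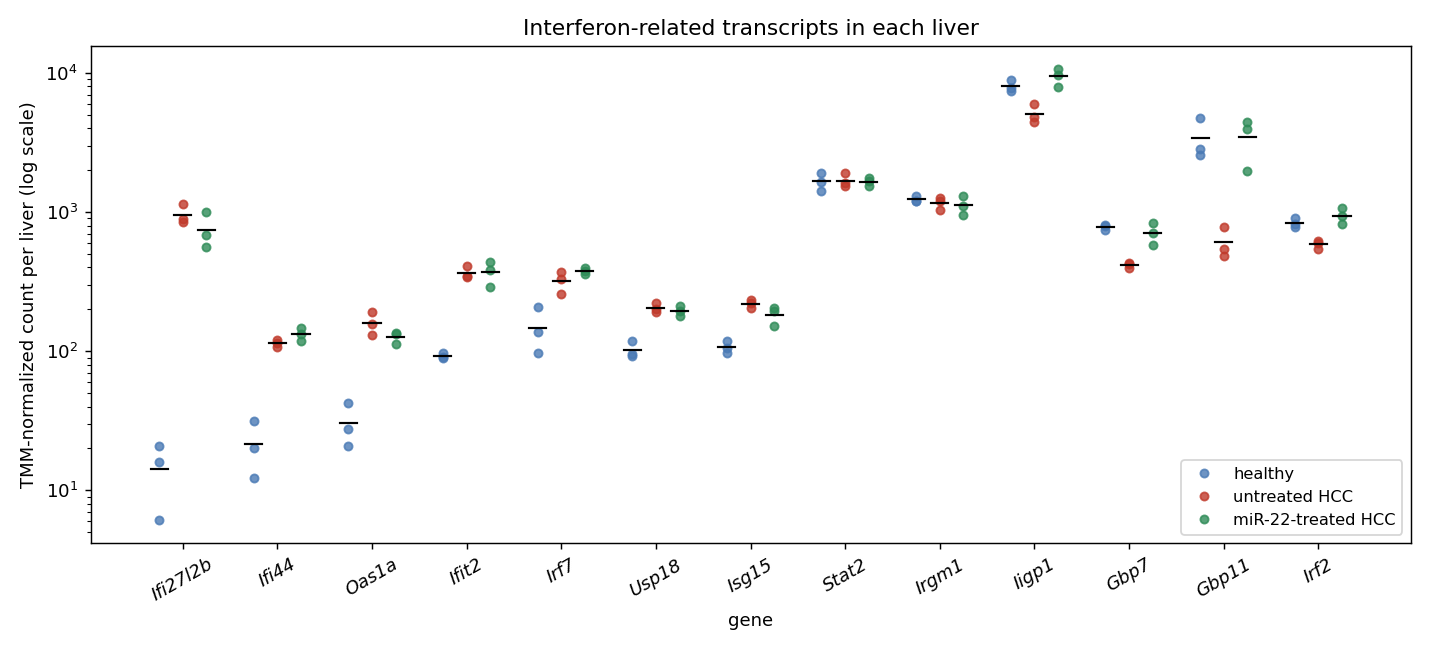
Normalized count (vertical axis, log scale) of 13 members in each of the 9 livers, with 3 points per group and a black line at the group mean. Ifi27l2b, Ifi44, Oas1a, Ifit2, Irf7, Usp18 and Isg15 lie higher in every HCC liver than in any healthy liver, Stat2 and Irgm1 overlap between groups, and Gbp11, Gbp7 and Iigp1 are lowest in untreated HCC.

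Among the genes of antiviral effectors, the number of rises in untreated HCC varied by family. The OAS enzymes make 2′-5′ oligoadenylates that activate RNase L, and 6 of their 8 tested members rose, with none lower and a median log2 fold change of 1.08. Oas1a had 42.7, 20.8 and 27.7 normalized counts in healthy livers and 193, 156 and 132 in untreated HCC. The lowest HCC liver was thus well above the highest healthy liver, and the log2 fold change was 2.39 (SE 0.25, adjusted p = 5.76e-06). Oas1g, at 14.6, 7.33 and 5.33 against 36.4, 34.7 and 44.2, had a log2 fold change of 2.08 (SE 0.40, adjusted p = 0.000674). Oas1c (1.61), Oasl2 (1.31), Oas1b (0.85) and Oas2 (0.83) were also called higher, and the call of Oas1b was lost without untreated HCC replicate 3 (adjusted p = 0.0553). Oas3 (0.76, adjusted p = 0.0598) and Oasl1 (0.60, adjusted p = 0.0628) were not.

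All 3 members of the IFI27 family, small proteins of mitochondrial and nuclear membranes, rose. Ifi27l2b (chr12:103417157-103423482, GRCm39) had the largest change of all members. It had 20.7, 6.11 and 16.0 normalized counts in healthy livers and 1141, 845 and 891 in untreated HCC. This is a log2 fold change of 6.05 (SE 0.32, 95% interval 5.36 to 6.73, adjusted p = 2.66e-08), or 66.2-fold. Ifi27l2a, at 18.3, 6.11 and 10.7 against 83.6, 59.1 and 53.6, had a log2 fold change of 2.47 (SE 0.39, adjusted p = 0.000161). Ifi27, at 582, 396 and 499 against 1387, 1300 and 1289, had a log2 fold change of 1.43 (SE 0.15, adjusted p = 4.24e-06). The exons of Ifi27 and Ifi27l2a overlap on opposite strands, and the libraries did not keep the strand, so their reads cannot be fully separated.

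Of the 4 tested IFIT genes, whose proteins bind foreign RNA, 2 rose. Ifit2 (chr19:34527932-34554524, GRCm39) had 89.0, 97.8 and 91.7 normalized counts in healthy livers and 412, 341 and 349 in untreated HCC, a log2 fold change of 1.98 (SE 0.16, adjusted p = 8.15e-07). Ifit1 had 140.3, 81.9 and 79.9 against 192, 208 and 207, a log2 fold change of 1.01 (SE 0.28, adjusted p = 0.00762). Both groups of livers were apart for each gene. Ifit3 (0.39) and Ifit3b (0.16) were not called.

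In the group of the ISG15 pathway and antiviral effectors, 4 of 7 members rose and 1 fell. Isg15, a ubiquitin-like modifier, had 105, 96.6 and 119 normalized counts in healthy livers and 235, 203 and 223 in untreated HCC, a log2 fold change of 1.04 (SE 0.16, adjusted p = 0.000115). Usp18, the protease that removes ISG15 and restrains type I interferon receptor signaling, had 118, 91.7 and 95.9 against 224, 191 and 201, a log2 fold change of 1.01 (SE 0.15, adjusted p = 0.000106). Isg20, an RNA exonuclease, had a log2 fold change of 1.35, and Rsad2, the radical SAM enzyme viperin, 0.85. The change went the other way for Mx2, a dynamin-like GTPase, with 298, 257 and 238 in healthy livers and 176, 141 and 177 in untreated HCC (log2 fold change -0.68, SE 0.16, adjusted p = 0.00327). Without untreated HCC replicate 3 the log2 fold change of Mx2 was -0.58, below the fold threshold. Mx1, at 45.1, 23.2 and 3.20 against 40.9, 36.5 and 29.0, overlapped between groups. Zbp1, a sensor of Z-form nucleic acid, had a log2 fold change of 0.40 (adjusted p = 0.132), which became 0.71 (adjusted p = 0.00654) without healthy replicate 1.

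Ifi44 and Ifi30 were also higher in untreated HCC. Ifi44 had 31.7, 12.2 and 20.3 normalized counts in healthy livers and 115, 107 and 120 in untreated HCC, a log2 fold change of 2.41 (SE 0.27, adjusted p = 9.25e-06). Ifi30, the thiol reductase of the antigen-processing compartment, had a log2 fold change of 0.72 (adjusted p = 0.000527), and Ifi35 (-0.06) and Isg20l2 (0.09) were not called. Of the 9 tested p200 and AIM2-like genes, which encode DNA-binding proteins, Ifi202b (1.03) and Ifi209 (1.02) rose and the remaining 7 did not pass. The call of Ifi209 was lost without healthy replicate 3 (adjusted p = 0.0561) or untreated HCC replicate 2 (adjusted p = 0.0949). Leaving out untreated HCC replicate 4 added Ifi205 (2.26), leaving out untreated HCC replicate 3 added Ifi207 (0.72), and leaving out healthy replicate 1 added the pseudogene Ifi203-ps as lower (-0.91). The IFITM genes, which encode membrane proteins that block viral entry, did not pass in any comparison. Ifitm3 had 3139, 2998 and 3498 normalized counts in healthy livers and 3060, 2794 and 3336 in untreated HCC (log2 fold change -0.07), and Ifitm2 had a log2 fold change of -0.15. None of the 3 IRF2-binding proteins was called.

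The GTPases of the IFN-γ response were divided. Of 11 tested GBPs, 2 rose and 3 fell in untreated HCC. Gbp9 had 263, 247 and 199 normalized counts in healthy livers and 684, 792 and 639 in untreated HCC, a log2 fold change of 1.58 (SE 0.13, adjusted p = 6.17e-07), and Gbp6 had a log2 fold change of 1.35 (SE 0.23, adjusted p = 0.000235). The annotated exons of Gbp9 overlap those of Gbp4 and Gbp8, neither of which was called. Gbp11 (chr5:105470908-105494338, GRCm39) had 4729, 2832 and 2593 in healthy livers and 486, 545 and 784 in untreated HCC. It fell by 2.48 on the log2 scale (SE 0.31, adjusted p = 2.02e-05), the largest fall of any member, and its highest HCC liver was far below the lowest healthy liver. Gbp7 (chr3:142236044-142255910, GRCm39) had 813, 749 and 795 against 397, 431 and 426, and fell by 0.91 (SE 0.12, adjusted p = 3.6e-05). Gbp2b had 607, 246 and 394 against 311, 230.2 and 260.2, and its groups overlapped. Gbp10 was not called with all livers in the fit (0.40), but it was without healthy replicate 1 (0.69, adjusted p = 0.0128). The call of Gbp2b (log2 fold change -0.64, adjusted p = 0.0409) was lost without healthy replicate 1 (-0.28, adjusted p = 0.258), healthy replicate 3 (adjusted p = 0.0632), untreated HCC replicate 3 (adjusted p = 0.133) or untreated HCC replicate 4 (adjusted p = 0.0868).

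Of the 5 IRGs, Iigp1 fell and 4 did not pass. Iigp1, whose product coats parasite vacuoles, was among the most abundant members. It had 8959, 7423 and 7781 normalized counts in healthy livers and 4848, 4425 and 5979 in untreated HCC, without overlap, and a log2 fold change of -0.66 (SE 0.14, adjusted p = 0.00168). Without untreated HCC replicate 3 the value was -0.57, below the fold threshold. Irgm1, a regulator of this family, had 1300.1, 1209 and 1195 against 1198, 1042 and 1259, a log2 fold change of -0.08 (95% interval -0.33 to 0.17). Igtp (-0.25), Irgm2 (-0.33) and Ifi47 (-0.03) were not called either, and Igtp and Irgm2 share annotated exons. The summed hepatocyte markers moved in the same direction as Gbp11, Gbp7 and Iigp1 in untreated HCC, as did the 8 NK and cytotoxic cell markers, of which 4 were tested, with sums from 89.5 to 132 in the healthy group, from 60.0 to 65.9 in untreated HCC livers and from 96.5 to 121 in miR-22-treated ones. The sum of 7 endothelial cell markers, all tested, was also lower without overlap, at 6735 to 8510 in healthy livers and 4393 to 5554 in untreated HCC, but that list was divided, with 3 of 7 markers called lower, 3 with a positive log2 fold change and a median of -0.10. The part of these 3 lists in the changes was not tested.

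**Figure D3:**
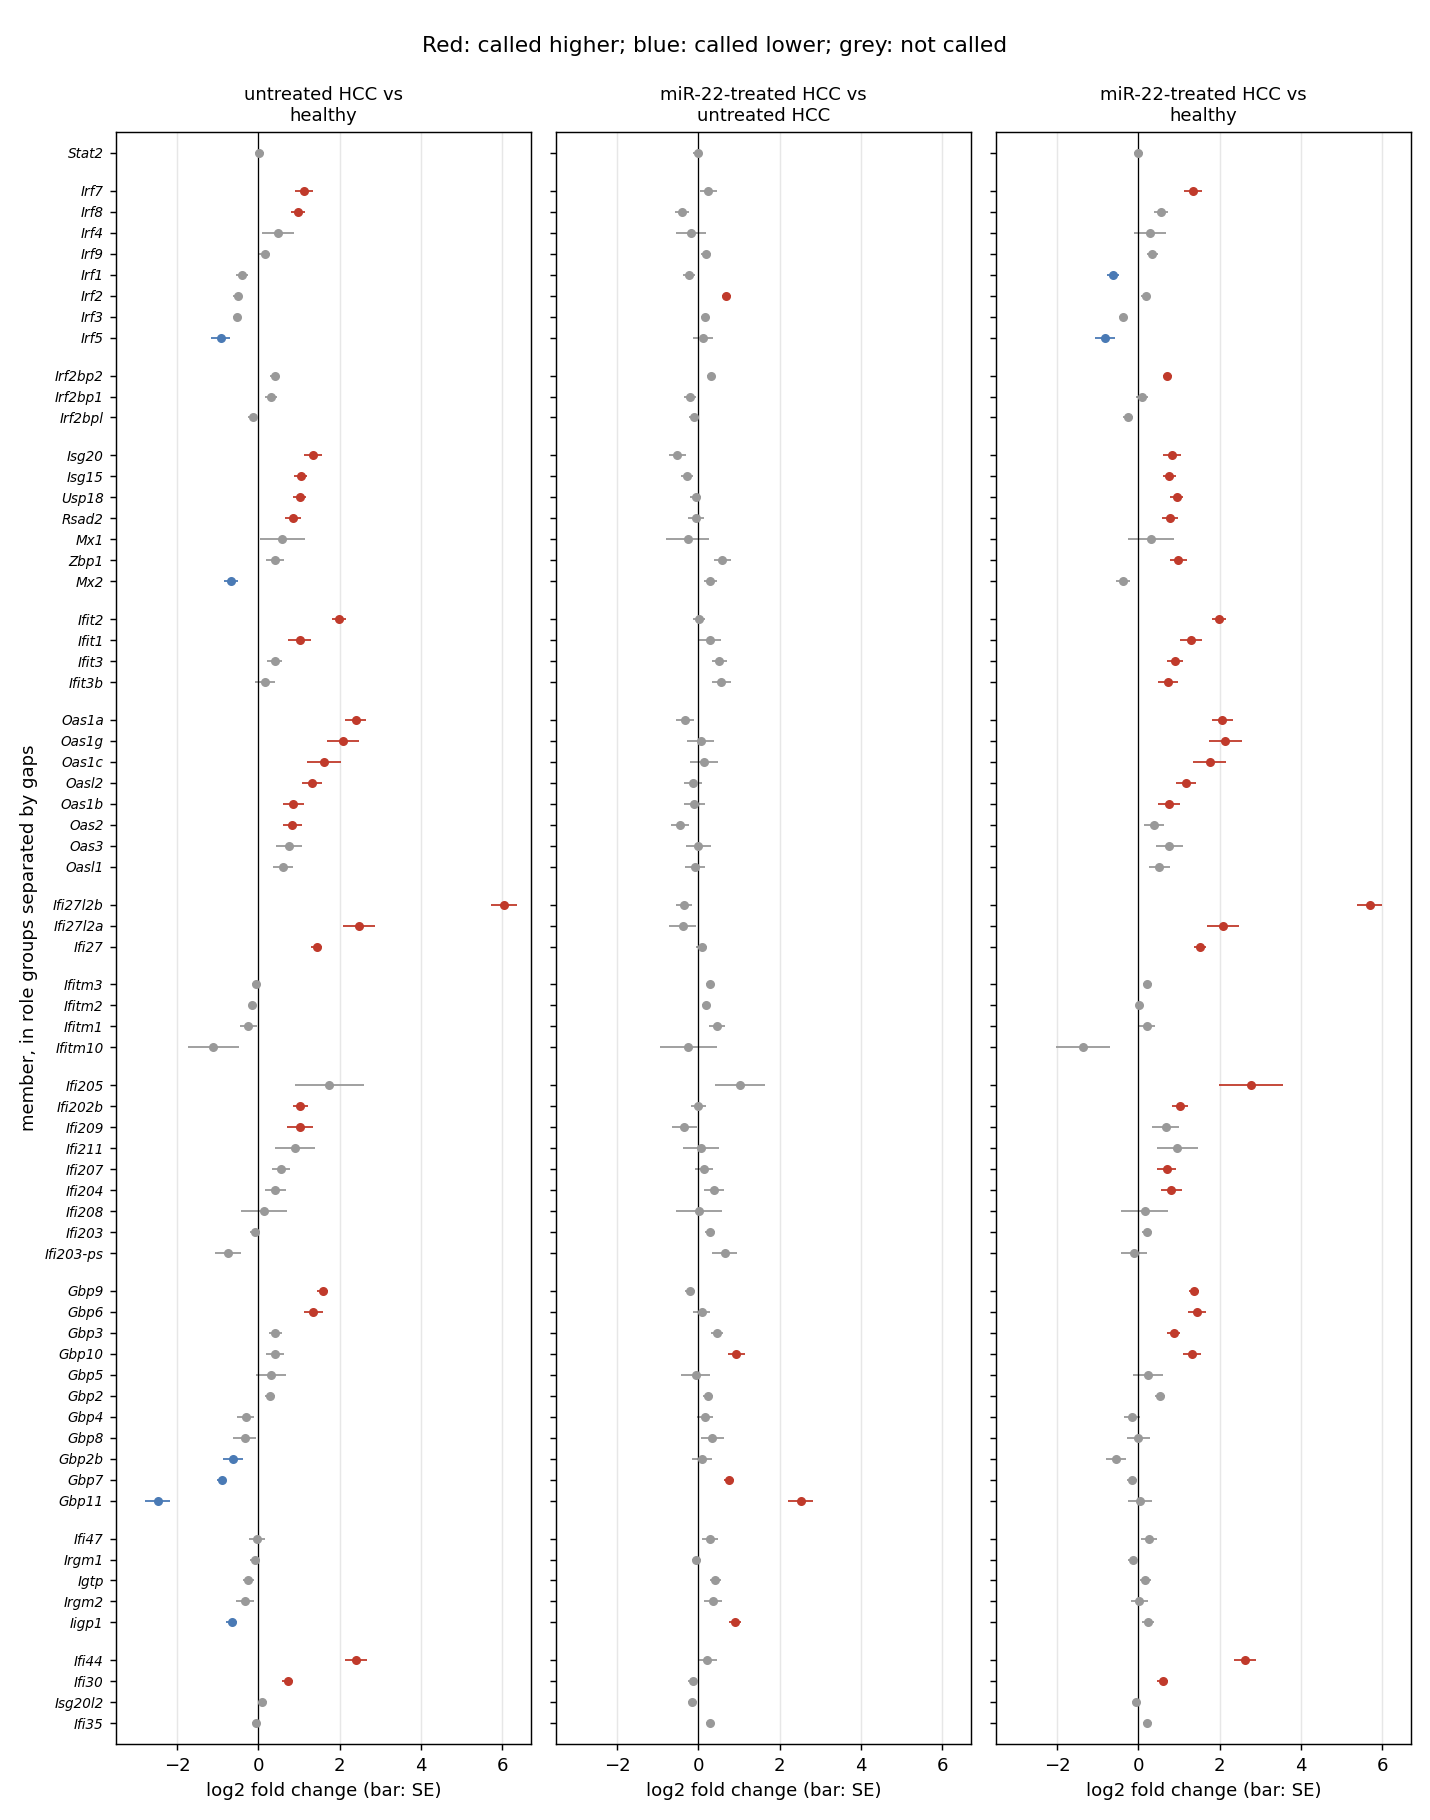
Log2 fold change with its standard error (horizontal axis) of 67 of the 69 tested members in each of the 3 comparisons, arranged by role and colored by call. Red points to the right in the first panel are mostly OAS, IFI27, IFIT and ISG15 genes, up to 6.05 for Ifi27l2b, and the middle panel has 5 red points, of which Gbp11 (2.52) lies farthest out.

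The second comparison asked what miR-22 changed in HCC livers. Of the 69 tested members, 5 rose and none fell by edgeR's quasi-likelihood test. The 5 members were 7.25% of those tested, below the 13.8% called among all tested genes, of which 8.32% rose and 5.47% fell. DESeq2's Wald test also called 5, all higher. In edgeR 18 of the 69 members had an unadjusted p under 0.05, as did 5680 of all 15717 tested genes. The median log2 fold change was 0.09 over the members and 0.00 over all tested genes. Counts did not overlap between the HCC groups for 26 members (37.7%), against 39.3% of all tested genes. The 5 were 3 GBPs, 1 IRG and 1 IRF.

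Gbp11 had the largest change with miR-22. It had 486, 545 and 784 normalized counts in untreated HCC and 3980, 4460 and 1983 in miR-22-treated HCC, with a log2 fold change of 2.52 (SE 0.31, 95% interval 1.85 to 3.18, adjusted p = 0.000267), or 5.73-fold. Every treated liver was above every untreated liver. Gbp10 had 201, 285 and 261 against 554, 496 and 377, a log2 fold change of 0.93 (SE 0.21, adjusted p = 0.00814). Gbp10 shares annotated exons with a neighboring gene, Gm43302. Gbp7 had 397, 431 and 426 against 829, 713 and 578, a log2 fold change of 0.75 (SE 0.12, adjusted p = 0.00115).

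Iigp1 had 4848, 4425 and 5979 normalized counts in untreated HCC and 9659, 10765 and 7902 in miR-22-treated HCC, a log2 fold change of 0.89 (SE 0.14, adjusted p = 0.00123). Irf2 (chr8:47192222-47300501, GRCm39), which antagonizes IRF1 at shared sites, had 544, 615 and 602 against 941, 1075 and 816, a log2 fold change of 0.68 (SE 0.11, adjusted p = 0.00119). Neither gene overlapped between the HCC groups. Without miR-22-treated HCC replicate 3 the log2 fold change of Irf2 was 0.58, below the fold threshold, which left 4 called members. Without miR-22-treated HCC replicate 4 the test called 9 members, with Zbp1 (0.70), Ifit3 (0.69) and Ifit3b (0.73) added as higher and Ifi27l2b (-0.63, adjusted p = 0.0222) as lower. In the 5 members that rose, this liver had the lowest count of the 3 treated livers. The hepatocyte and NK marker sums were also higher in each treated liver than in any untreated HCC liver. So were the endothelial cell sum (4393 to 5554 in untreated HCC, 5727 to 7327 with miR-22) and the Kupffer cell sum (4446 to 5596 and 6278 to 6745). By single genes, 4 of 8 hepatocyte, 1 of 4 tested NK, 1 of 7 endothelial and none of 6 Kupffer cell markers were called higher with miR-22, and none was called lower. Of the plasmacytoid dendritic cell markers, whose sums overlapped, 2 of 4 tested were called higher and none lower. Of 7 stellate cell and fibroblast markers, 2 were called higher and 1 lower. The part of these lists in the rises was not tested.

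None of the 23 members that were higher in untreated HCC than in healthy livers was called between the HCC groups with all livers in the fit. Of all tested genes, 13.8% were called there, 5.47% of them all as lower. Since both comparisons use the untreated HCC livers, the values of these members are given side by side. Ifi27l2b had 562, 679 and 999 normalized counts in the miR-22-treated livers (log2 fold change -0.36 against untreated HCC, 95% interval -0.80 to 0.09). Ifit2 had 435, 382 and 288 (log2 fold change 0.00, 95% interval -0.32 to 0.32). Oas1a had 113, 132 and 136 (-0.33, 95% interval -0.81 to 0.15), and Irf7 had 379, 396 and 357 (0.24, 95% interval -0.21 to 0.69). The treated livers overlapped with the untreated HCC livers for each of these 4, and the intervals still leave room for changes of moderate size.

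For 5 others of the 23, picked after their values were seen, every treated liver was below every untreated HCC liver. Over all tested genes the HCC groups did not overlap for 39.3%, in either direction. The 23 were taken as high in these same untreated HCC livers, which favors lower values in the treated livers. Isg20 had 90.9, 99.9 and 80.4 normalized counts in untreated HCC and 62.1, 54.4 and 71.1 in the treated livers, with a log2 fold change of -0.52 (95% interval -0.98 to -0.07, adjusted p = 0.0879). Irf8 had 249, 328 and 283 in treated livers, with a log2 fold change of -0.41 (adjusted p = 0.0955). Oas2 had 94.6, 84.3 and 94.2 against 68.8, 50.7 and 78.4 (-0.46, adjusted p = 0.18). Isg15 (-0.28, adjusted p = 0.216) and Gbp9 (-0.21, adjusted p = 0.233) were the others, and none of the 5 passed the adjusted test. Zbp1 (0.58, adjusted p = 0.0611) and Ifit3 (0.52, adjusted p = 0.067) were higher in the treated livers without passing. No OAS, IFI27, IFIT, IFITM or p200 gene was called between the HCC groups by edgeR's quasi-likelihood test with all livers in the fit.

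The third comparison set miR-22-treated HCC against the same healthy livers. Of the 69 tested members, 29 were higher and 2 were lower. The 31 called members were 44.9% of those tested, above the 24.0% called among all tested genes, where 16.9% were higher and 7.05% lower. The median log2 fold change was 0.52 over the members and 0.02 over all tested genes. Counts did not overlap for 42 members (60.9%), against 48.8% of all tested genes. As in the first comparison, the OAS, IFI27, IFIT and ISG15 genes made up most of the higher ones, but the comparisons share the healthy livers and are not independent of each other.

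All 4 tested IFIT genes were higher in miR-22-treated HCC than in healthy livers. Ifit3 had 121, 149 and 104 normalized counts in healthy livers and 294, 234 and 176 in treated livers, a log2 fold change of 0.91 (SE 0.20, adjusted p = 0.00314), and Ifit3b had a log2 fold change of 0.72 (adjusted p = 0.0376). The call of Ifit3b was lost on leaving out each healthy liver in turn, or miR-22-treated HCC replicate 2 or 3 (adjusted p from 0.0551 to 0.142). Of 8 OAS genes 5 were higher, with Oas1g at 2.14 and Oas1a at 2.06. Oas1b (0.75, adjusted p = 0.0424) lost its call on leaving out each of the 6 livers in turn, and Oas2 (0.38, adjusted p = 0.259) was not called. Of the 7 ISG15-pathway and antiviral effectors 5 were higher, Zbp1 at 0.98 (adjusted p = 0.00353) among them. Isg20 (0.83) lost its call without healthy replicate 2 (adjusted p = 0.0524) or miR-22-treated HCC replicate 4 (adjusted p = 0.0534). Ifi27l2b was 51.7-fold higher (log2 fold change 5.69, SE 0.32) and Ifi44 was 6.17-fold higher (2.63, SE 0.27). The IFI27 and IFIT genes were called in every tested member.

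Among the GBPs, 4 of 11 were higher than in healthy livers and none was lower. Gbp10 had 263, 147 and 159 normalized counts in healthy livers against 554, 496 and 377 in treated livers, a log2 fold change of 1.33 (SE 0.22, adjusted p = 0.000599). Gbp6 (1.44), Gbp9 (1.37) and Gbp3 (0.87) were the others. Gbp2b was called lower (-0.82) without healthy replicate 2. Gbp11, Gbp7 and Iigp1 had log2 fold changes of 0.04 (95% interval -0.59 to 0.66), -0.16 (-0.41 to 0.10) and 0.23 (-0.08 to 0.54) against healthy livers and were not called. No IRG was called in this comparison.

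Of the IRFs, Irf7 was higher (1.35, adjusted p = 0.00053) and Irf1 and Irf5 were lower. Irf1, which interferons induce early, had 1179, 907 and 805 normalized counts in healthy livers and 594, 512 and 753 in miR-22-treated HCC, a log2 fold change of -0.63 (SE 0.15, adjusted p = 0.00621). It fell without overlap, but its value was -0.48 without healthy replicate 1 and -0.51 without miR-22-treated HCC replicate 3, below the fold threshold. Irf5 had 392, 347 and 328 against 308, 168 and 127, with a wide spread among the treated livers and a log2 fold change of -0.82 (adjusted p = 0.02). Its call was lost without healthy replicate 1 (adjusted p = 0.0598), miR-22-treated HCC replicate 3 (adjusted p = 0.0671) or replicate 4 (-0.57, adjusted p = 0.0601). Irf8 (0.56, adjusted p = 0.0235) missed the fold threshold, and passed it without healthy replicate 1 (0.76) or miR-22-treated HCC replicate 2 (0.64). Of the p200 and AIM2-like genes 4 of 9 were higher: Ifi205 (2.77), Ifi202b (1.03), Ifi204 (0.80) and Ifi207 (0.69). The call of Ifi205, which had 1.07 to 3.67 normalized counts in healthy livers, was lost without healthy replicate 1 (adjusted p = 0.0622) or replicate 3 (adjusted p = 0.072). That of Ifi204 was lost without healthy replicate 2 or 3, or miR-22-treated HCC replicate 2 or 3 (adjusted p from 0.0652 to 0.115). That of Ifi207 was lost on leaving out each healthy liver in turn, or miR-22-treated HCC replicate 4 (adjusted p from 0.0602 to 0.138). Ifi202b kept its call with each liver left out. Ifi30 (0.60, adjusted p = 0.00422) was just past the fold threshold and fell below it without healthy replicate 2 (0.57), healthy replicate 3 (0.49) or miR-22-treated HCC replicate 4 (0.51). Irf2bp2 was the IRF2-binding protein called higher (0.71).

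**Figure D4:**
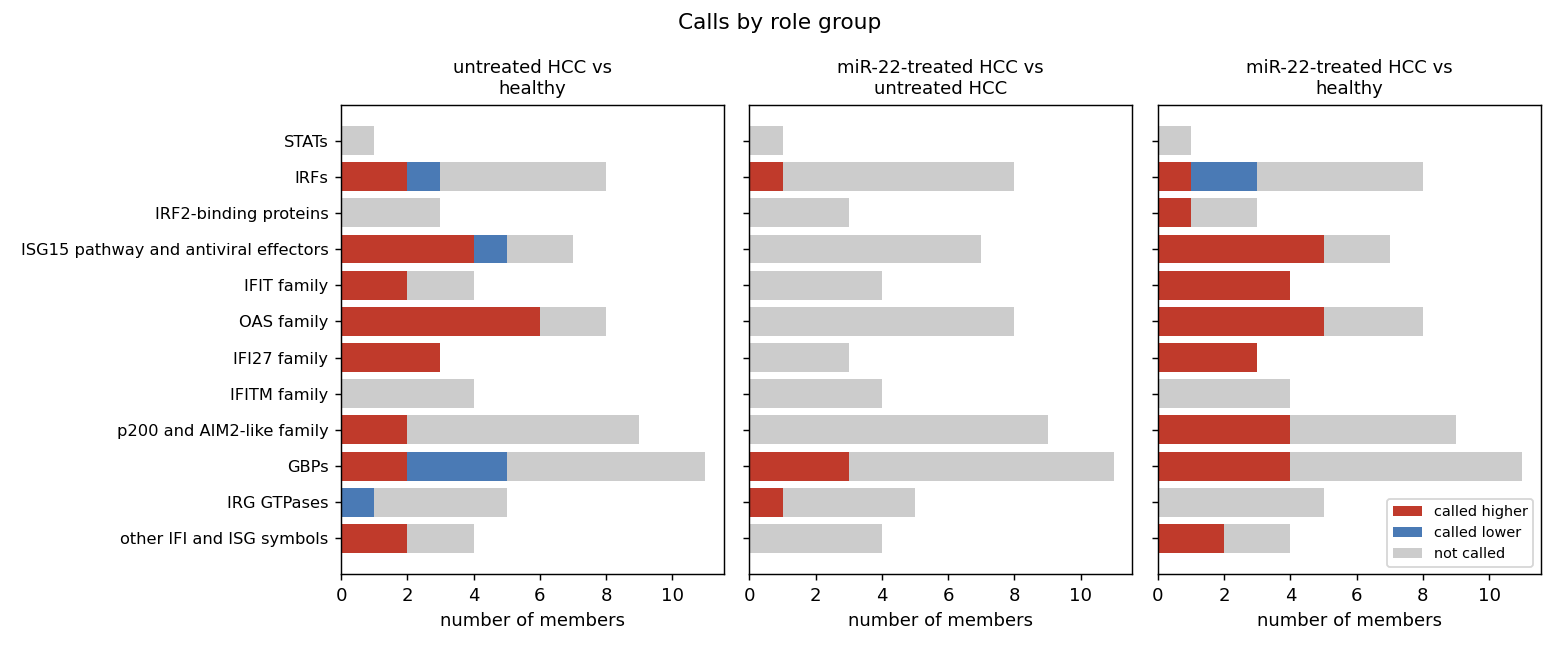
Number of members in each role group (horizontal axis), over the same 67, called higher (red), called lower (blue) or not called (grey) in the 3 comparisons. The OAS group has 6 of 8 higher in untreated HCC against healthy livers and none called between the HCC groups, where 3 of the 5 called members are GBPs.

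The members differed widely in abundance. To compare genes with each other, normalized counts were divided by exon length and by the effective library size (FPKM). In healthy livers the most abundant members were Ifitm2 (132 ± 5.49 FPKM, SD, n = 3) and Ifitm3 (129 ± 10.4), which did not differ beyond their spread. Iigp1 (65.2 ± 6.51) and Gbp11 (64.8 ± 22.4) came next, also within their spread of each other, and were followed by Irf3 (19.2 ± 2.17). In untreated HCC Gbp11 was at 11.6 ± 3.02 FPKM and Iigp1 at 41.2 ± 6.51, and in miR-22-treated HCC they were at 66.5 ± 25.2 and 76.5 ± 11.7. The exons of 31 of the 83 members overlap those of another annotated gene, for 17 of them on the other strand, so the level of such a gene can include reads of its neighbor.

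The other genes of the pathway were taken as lists. None of 21 interferon genes had enough counts to be tested, and Ifng and Ifnk had at most 2.44 and 3.67 normalized counts in any liver. Interferon transcripts were thus not detectable at a level that could be compared. Of 6 receptor chains, 4 rose in untreated HCC and none fell (66.7% called, against 40.8% of all tested genes and 22.7% for rises alone), and none was called between the HCC groups, where 13.8% of all tested genes were. The IFN-γ receptor chain Ifngr1 had 511, 438 and 451 normalized counts in healthy livers and 994, 806 and 839 in untreated HCC (log2 fold change 0.91, adjusted p = 1.64e-05). Ifngr2 had a log2 fold change of 1.27, Il10rb, a shared chain, 0.89, and Ifnlr1, the type III interferon receptor chain, 3.21. The type I receptor chains Ifnar1 (0.08) and Ifnar2 (-0.08) were not called. Neither were the kinases Jak1, Jak2 and Tyk2.

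Of 5 STAT genes outside the members, Stat5b, the growth hormone-responsive STAT of hepatocytes, fell in untreated HCC (-0.66, adjusted p = 4.54e-05). Of 9 negative regulators, 2 rose and 1 fell (33.3% called, against 40.8% of all tested genes). Socs3, a feedback inhibitor of cytokine receptors, had 202, 91.7 and 118 normalized counts in healthy livers, 486, 425 and 406 in untreated HCC and 204, 242 and 231 in miR-22-treated HCC. It rose in untreated HCC (1.68, adjusted p = 3.3e-05) and was lower with miR-22 (-0.96, adjusted p = 0.0065), without overlap in either. Both comparisons use the same untreated HCC livers and are not independent. Socs1 (1.23, adjusted p = 0.0484) had few counts, 7.46 to 29.5 normalized, and its call was lost on leaving out each healthy liver in turn, or untreated HCC replicate 2 or 3 (adjusted p from 0.0697 to 0.183). Trim24, a co-repressor of retinoic acid receptors that limits interferon signaling, fell (-0.93).

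Of 17 nucleic acid sensors and adaptors, 8 rose in untreated HCC and none fell. The share called was 47.1%, against 40.8% of all tested genes in either direction and 22.7% for rises alone. With miR-22, 3 were lower and none was higher (17.6% called, against 13.8% in either direction and 5.47% for falls alone). Sting1, the adaptor of the DNA sensor cGAS, had 39.0, 64.8 and 36.2 normalized counts in healthy livers, 401, 576 and 237 in untreated HCC and 164, 177 and 224 in miR-22-treated HCC. Its log2 fold change was 3.12 (adjusted p = 4.59e-06) in untreated HCC and -1.09 (adjusted p = 0.0136) with miR-22, and the latter call was lost without untreated HCC replicate 3 (-0.75, adjusted p = 0.079) or miR-22-treated HCC replicate 3 (adjusted p = 0.0553). In both comparisons, which share the untreated HCC livers, the livers of the groups were apart. Ticam1, the adaptor of TLR3, was at 1.00 and -0.88, and Traf3, a signaling adaptor downstream of several sensors, at 1.14 and -0.64, where the latter was -0.52 without untreated HCC replicate 3 and -0.53 without miR-22-treated HCC replicate 3. The cholangiocyte sum was also lower with miR-22 (64801 to 121460 in untreated HCC, 30414 to 52662 with miR-22), with 4 of 6 markers called lower. So were the proliferating cell sum (2557 to 3203, 1534 to 2330, 3 of 4 lower) and the stellate cell and fibroblast sum (14087 to 16244, 11509 to 13325). The last list was divided, with 1 of 7 lower and 2 higher. The part of these lists in the falls was not tested.

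Of 49 tested interferon-stimulated genes beyond the members, 15 rose and 1 fell in untreated HCC (32.7% called, against 40.8% of all tested genes). The rises included Ly6e, a membrane protein that restricts viral entry (2.06), Shisa5 (2.45), Slfn9 (2.19) and Lgals3bp (1.47). Between the HCC groups 2 rose and 1 fell (6.12% called, against 13.8%). Apol9b had 2445, 2069 and 2181 normalized counts in healthy livers, 932, 791 and 1015 in untreated HCC and 2699, 2394 and 1884 in miR-22-treated HCC. It fell in untreated HCC (-1.29, adjusted p = 5.21e-06) and was higher with miR-22 (1.35, adjusted p = 8.74e-05), without overlap in either comparison. Here too the comparisons share the untreated HCC livers. Herc6 (0.59) was just past the fold threshold with miR-22 and was not called under 11 of the alternative settings, among them without untreated HCC replicate 3 (0.58), miR-22-treated HCC replicate 2 (0.54) or replicate 3 (0.55). Shisa5 was lower with miR-22 (-0.81). Of 17 tested chemokine, MHC and checkpoint genes of the IFN-γ response, 6 rose and 2 fell in untreated HCC (47.1% called, against 40.8%). The adhesion molecule Icam1 (2.27), the immunoproteasome subunit Psmb8 (0.82) and the peptide transporter Tap1 (0.70) rose. Cxcl11, a ligand of CXCR3, fell, with 176, 128 and 90.6 normalized counts in healthy livers and 21.8, 29.5 and 39.9 in untreated HCC (-2.09, adjusted p = 0.000103). With miR-22 Icam1 was lower (-0.81, adjusted p = 0.00129) and no other gene of this list was called (5.88%, against 13.8% of all tested genes).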

How the data were processed

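Whole-liver RNA was sequenced from 9 mice as paired reads from a non-directional kit, and read quality was checked with FastQC 0.11.7. Salmon, run by the authors against GRCm39, gave transcript estimates that tximport summed per gene, and the authors deposited these estimated counts as whole numbers for 55401 genes. Their deposited DESeq2-normalized values were not used. No row was left out of the library sizes. Tests were run with edgeR 4.0.16 under R 4.3.3 (TMM, filterByExpr, two-sided quasi-likelihood test, all 9 libraries in a single fit without covariates, 6 residual degrees of freedom), with Benjamini-Hochberg adjustment over 15717 genes. Depth was 16664659 to 23908392 counts per liver, the common dispersion was 0.0206, and normalized counts are at a mean effective library size of 19401057. Standard errors were derived from the F statistic. All 83 members were matched by ID to GENCODE vM39 (GRCm39) for coordinates and exon lengths. Promoters and motifs were read with Python 3.11.15, and figures were drawn with matplotlib 3.10.9.

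The members, gene lists and named genes were chosen with earlier results of these data known. Named members were a fixed list of regulators and effectors and, per comparison, the 8 largest rises and 8 largest falls among called members with at least 10 counts in the higher group. From each other list, up to 4 called genes with the smallest p were named. Further members, and pathway genes without a call, were named after their values were seen, to account for their groups. Alternatives were DESeq2 1.42.0 (Wald test), its size factors, upper-quartile normalization, no filter and a stricter filter on low counts, the 2 groups compared alone, the replicate number as a block, no fold threshold, glmTreat, each liver left out and a narrower list. Results for 2 of the tested members are not reported here singly, and counts include them. The script was tested on simulated data with known changes.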

Additional observations from a re-analysis of the deposited data

How the results depend on the processing

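The 30 members called between untreated HCC and healthy livers became 19 when folds were tested against 1.5 itself (glmTreat), and 27 to 32 when each liver was left out in turn. The 5 called between the HCC groups became 1 under glmTreat (Gbp11) and 4 to 9 with a liver left out, the most without miR-22-treated HCC replicate 4. With no fold threshold 9 of the 69 tested members were called, as were 3777 of all 15717 tested genes. The 31 called between miR-22-treated HCC and healthy livers became 17 under glmTreat and 26 to 30 with a liver left out. The other alternatives gave 28 to 35, 5 and 25 to 35. No call changed direction. Other scalings moved the median of all genes by less than 0.05 on the log2 scale.

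Same-numbered HCC livers did not deviate together from their group means (correlations of -0.12, -0.12 and -0.23 across genes), and no HCC liver correlated best with its own number in the other group, so the numbers were not taken as pairs. With the replicate number as a block, 29, 5 and 25 members were called, of which 25, 5 and 24 were also called without it. Untreated HCC against healthy livers lost Irf5, Mx2, Iigp1, Gbp2b and Oas1b. In miR-22-treated HCC against healthy livers the lost calls were Irf1, Irf5, Ifit3b, Isg20, Oas1b, Ifi204 and Ifi207. Calls of printed members that were lost when 1 liver was left out are named beside their values. Precision is limited by 3 livers per group, and for Ifi205, Ifi211 and Ifitm10 also by normalized counts under 20.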
